A study of Mus musculus with 192 samples.

Results

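Timp1, Timp2 and Mmp9 are the only members of the matrix metalloproteinase and inhibitor families on a panel of 96 TaqMan assays (95 genes) that was run on single cells from mouse skin wounds. They are 3 of the 95 genes, and their assays (Mm00441818_m1, Mm00441825_m1 and Mm00442991_m1) were found by gene name without regard to case. The genes were chosen by their measured shares of detecting cells and Ct values in this table, so their levels by cell class and genotype are given as descriptions. The study joined GFP-positive donor mice by parabiosis to recipients that were either WT or lacked CXCL12 in the endothelium (EKO), made excisional wounds on the back, and sorted lineage-negative, GFP-positive cells from those wounds. The cells measured are therefore donor cells that had reached a recipient's wound, and the genotype is that of the recipient, not of the cell. The table holds 192 cells, with 48 WT and 48 EKO cells in each of 2 sets, A and B. WT cells are numbers 1 to 48 of each set and EKO cells are numbers 49 to 96, so genotype and position within a set cannot be told apart. Neither the Cre line, nor which antigens made up the lineage gate, nor the day of harvest, nor the age and number of the mice is stated in the sources used here.

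The values are cycle thresholds (Ct), the cycle at which a reaction crosses its detection limit. An earlier Ct means more template, and 40 was read as not detected. No label ties a cell to an animal, so each genotype was treated as 1 sample with cells inside it: nothing below is a test of genotype. Intervals on shares are exact 95% intervals that cover counting error only, intervals on differences between shares are Newcombe 95% intervals with the same limit, and an SD is taken over cells. Where a count is 0, the upper limit given is instead the share that 3 cells would make of those measured, a rule that gives a slightly lower limit than the exact interval.

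TIMPs are small secreted proteins that bind the active site of matrix metalloproteinases, the enzymes that cut collagen and other matrix proteins. Timp1 is an inducible inhibitor that rises with growth factors and inflammatory cytokines, and it binds the pro-form of Mmp9. Timp2 is expressed more steadily in mesenchymal cells, and it also takes part in the activation of pro-Mmp2 at the cell surface. Mmp9, gelatinase B, is made by neutrophils, macrophages and migrating keratinocytes in wounds, cuts denatured collagen and basement membrane collagen, and releases growth factors and Kit ligand held in the matrix.

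The sequences just upstream of Timp1 and Timp2 are shown because of a contrast in the same cells. Over both sets together, Timp1 differed between genotypes by more than the SD over cells and Timp2 did not. Each is the 250 bases before the annotated start, 5′ to 3′ on the gene's own strand, from RefSeq on GRCm38.p6. The capitals mark matches to AGGAAG (an Ets core) and GGGCGG (the Sp1 box), on either strand.
Timp1, chrX:20869916-20870165, plus strand: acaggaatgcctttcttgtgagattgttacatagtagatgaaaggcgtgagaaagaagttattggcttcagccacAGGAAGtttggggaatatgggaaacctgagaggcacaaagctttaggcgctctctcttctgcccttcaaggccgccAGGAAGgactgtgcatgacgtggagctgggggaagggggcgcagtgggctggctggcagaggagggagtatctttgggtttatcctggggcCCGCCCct
Timp2, chr11:118355412-118355661, minus strand: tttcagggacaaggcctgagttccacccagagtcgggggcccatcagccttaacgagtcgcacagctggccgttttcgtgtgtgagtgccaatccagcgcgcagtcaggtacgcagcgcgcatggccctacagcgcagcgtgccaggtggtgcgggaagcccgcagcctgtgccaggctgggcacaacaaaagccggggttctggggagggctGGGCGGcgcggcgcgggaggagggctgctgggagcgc

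The Timp1 window held AGGAAG at -175 to -170 and at -99 to -94 relative to the start, and the Sp1 box on the other strand at -8 to -3. The Timp2 window held 1 Sp1 box, at -37 to -32. AGGAAG is present in 29.5% of the 32851 mouse promoter windows of this length and GGGCGG in 32.7%. The Timp2 window was richer in GC, at 68% with 21 CpG dinucleotides, against 54.4% with 6 CpG for Timp1 and a median of 52.4% with 6 CpG over all windows. Neither window held the AP-1 site TGANTCA, which 6.75% of all windows hold on either strand, or its variant TGAGTAA, which 2.25% hold. The Runx core TGTGGT (14% of all windows) and the TATA box TATAAA (12.4% of all windows) were not found in them either. The letters are a description of these windows and say nothing about which factors act there.

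Across the table, 5580 of 18432 reactions (30.3%) gave a Ct, from 4.49 to 37.9, and a cell gave one for 4 to 70 assays. The 170 cells with at least 10 assays were kept, 93 WT and 77 EKO. The 22 left out were 3 WT and 19 EKO cells. Kept cells were split into 46 collagen-high cells (Col1a1 Ct below 16; 25 WT and 21 EKO), 71 cells that detected the leukocyte phosphatase Ptprc without high collagen (35 WT and 36 EKO), and 53 other cells (33 WT and 20 EKO). Every collagen-high cell detected the fibroblast receptor Pdgfra, against 2.82% of Ptprc-detecting cells. The names hold only in part: 31 of the 46 collagen-high cells also detected Ptprc, at a median Ct of 16.7, while the myeloid genes Itgam and Adgre1 were seen in only 14.1% and 18.3% of the Ptprc-detecting class. Cells of these classes differ in how much they yielded, with a median of 52 assays detected in collagen-high, 28 in Ptprc-detecting and 15 in other cells, and this moves with each share below. The Col1a1 limit fell in a gap. The latest cells inside had Col1a1 at 13.9 and 14.3, with Timp1 at 12.4 and 17.9, and the earliest outside had Col1a1 at 17.04 and 18.04, with Timp1 not detected.

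Over all kept cells, Timp1 was detected mostly in the collagen-high ones. It was detected in 45 of 46 of them (97.8%, interval 88.5 to 99.9%), from Ct 7.61 to 21.2 with a median of 13.6 ± 3.11 (SD, n = 45). In Ptprc-detecting cells it was detected in 8 of 71 (11.3%, 4.99 to 21%), at a median of 18.3 ± 2.504 (SD, n = 8), and in other cells in 6 of 53 (11.3%), at 19.4 ± 3.15 (SD, n = 6). Nearly every collagen-high cell and few others gave a Timp1 signal, and the ranges of Ct overlapped. The classes differ in yield, however. With at least 24 assays, 45 of 46 collagen-high and 8 of 42 Ptprc-detecting cells detected it. With 40 to 70 assays, 30 of 30 EKO cells of any class and 25 of 29 WT cells did. Only 21 EKO cells were collagen-high, so at that yield Timp1 did not set the class apart in EKO. The difference in share between collagen-high and Ptprc-detecting cells was 86.6 points (73.4 to 92.3), and it ran the same way in each genotype and set: 93.75% against 0% in WT set A, 100% against 0% in WT set B, 100% against 22.7% in EKO set A, and 100% against 21.4% in EKO set B. Only Pdgfra (97.2 points) and the CXCL12 scavenger receptor Ackr3 (87.2 points) differed by more among 94 assays. A difference of at least 10 points over both sets together, with the same sign in each set, was met in this direction by 55.3% of assays. In the opposite direction it was met by 7.45%.

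Timp2 was present in every collagen-high cell and spread further into the other classes. Collagen-high cells detected it in 46 of 46, at a median Ct of 14.8 ± 1.24 (SD, n = 46). Ptprc-detecting cells detected it in 34 of 71 (47.9%, 35.9 to 60.1%), at 21.1 ± 3.37 (SD, n = 34), and other cells in 12 of 53 (22.6%, 12.3 to 36.2%), at 21.5 ± 2.24 (SD, n = 12). The share was 52.1 points higher (38.3 to 63.3) in collagen-high than in Ptprc-detecting cells. Its median Ct differed by -6.38 cycles (set A -5.90, set B -6.52), each larger than the SD over cells. A pooled Ct at least 1 cycle earlier, with the same sign in both sets, was found for 48.8% of the 43 assays comparable between these classes. A later one was found for 4.65%, and the median over the 43 was -1.23 cycles. Ptprc-detecting and other cells did not differ in Timp2 Ct beyond that spread.

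Mmp9 was rare. It was detected in 8 of 192 cells (4.17%, 1.82 to 8.04%), from Ct 9.002 to 21.3. Of the kept cells, 4 of 46 collagen-high (8.70%), 4 of 71 Ptprc-detecting (5.63%) and 0 of 53 other cells detected it, and 0 of 53 allows a share of up to 5.66%. The difference between collagen-high and Ptprc-detecting cells was 3.06 points (-6.49 to 15.2), so no difference between these classes was detectable with this number of cells.

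**Figure D1:**
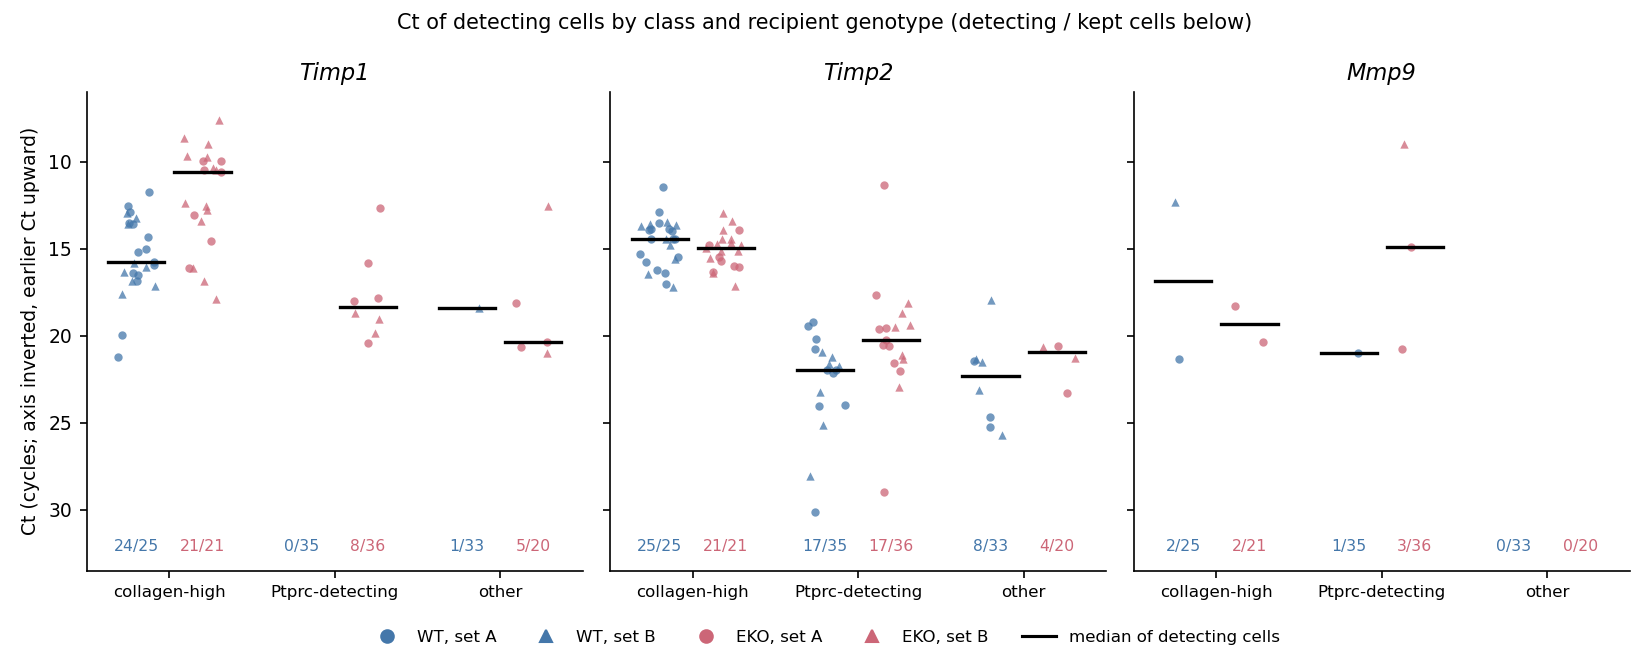
Ct of Timp1, Timp2 and Mmp9 (vertical axis, cycles, reversed so that more template is higher) in single kept cells that detected each gene, by cell class on the horizontal axis, recipient genotype (colour) and set (marker shape); the bar is the median of detecting cells, and the numbers below give detecting over kept cells. Collagen-high cells have the earliest median Timp1 and Timp2 Ct, EKO collagen-high cells reach a Timp1 Ct of 7.61 while WT cells stop at 11.7, and Mmp9 shows 8 scattered cells.

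Within the collagen-high cells, Timp1 came earlier in EKO than in WT. In WT, Timp1 ran from Ct 11.7 to 21.2 with a median of 15.8 ± 2.29 (SD, n = 24). In EKO, it ran from 7.61 to 17.9 with a median of 10.6 ± 2.92 (SD, n = 21). The ranges overlapped: 11 of the 21 EKO cells were earlier than every WT cell, and the other 10 lay inside the WT range at a median of 13.99. The difference in medians was -5.17 cycles over both sets, -4.58 within set A (7 EKO and 15 WT cells) and -4.62 within set B (14 EKO and 9 WT cells), each larger than the SD over cells of either genotype. An EKO cell was earlier than a WT cell in 81.3% of all pairs, in 81.9% within set A and in 81.7% within set B. If every cycle doubled the product, -5.17 cycles would be a 35.9-fold difference. The differences within sets would be 23.8-fold (A) and 24.5-fold (B). No source used here gives the efficiency of the assay. With means in place of medians the difference was -3.45 cycles.

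Timp1 had the largest earlier shift among the 47 assays that could be compared in these cells. The size rule was 1 cycle over both sets together, with the same sign in each set. It was met by 34% of those assays for an earlier Ct and by 8.51% for a later one. The median over all 47 was -0.67 cycles. An earlier Ct in EKO collagen-high cells was thus common, and the size of the Timp1 shift was not. The next were the pluripotency factor Nanog (-3.77 cycles), the IGF1 receptor Igf1r (-3.12), Vegfa (-2.996), the fibronectin receptor subunit Itga5 (-2.91) and the TGF-beta co-receptor Eng (-2.52). The Nanog shift was smaller than its SD over cells (4.43 in EKO, n = 20, and 4.38 in WT, n = 23). Reference genes moved less and not in 1 direction: Rn18s by -0.90 cycles (set A -0.40, set B -0.31), Actb by -0.84 (set A -0.94, set B -0.76) and B2m by 1.02 (set A 0.81, set B 1.695). After each cell's own median Ct was subtracted, Timp1 stood at -6.22 ± 2.45 (SD, n = 21) in EKO and -2.13 ± 1.81 (SD, n = 24) in WT, a difference of -4.09 cycles that still ranked first, just ahead of Nanog at -3.94. The median number of assays detected was 53 in EKO and 51 in WT collagen-high cells. Col1a1, which defines the class, was at 9.71 ± 2.16 (SD, n = 21) in EKO and 9.94 ± 1.94 (SD, n = 25) in WT. Endothelial markers were not more frequent in the EKO cells: a median of 0 of 6 was detected per EKO cell (range 0 to 3) and 1 of 6 per WT cell (0 to 4), with Tie1 and Cdh5 at 0 in EKO and Tie1 at 0 in WT. Leukocyte and myeloid markers had a median of 1 of 4 in both, with Adgre1 at 0 in both. Mesenchymal markers had a median of 7 of 8 in EKO and 6 of 8 in WT. Of 5 with a comparable level, 2 came earlier in EKO by the size rule (Eng by 2.52 cycles, Pdgfra by 1.34) and 1 later (Col3a1 by 1.32). Haematopoietic progenitor markers had a median of 3 of 6 in both. Of 3 with a comparable level, Runx1 came 1.46 cycles earlier in EKO, Cd34 came 2.67 later and Ly6a differed by -0.15.

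Timp2 did not share that shift. In the same cells it ran from Ct 12.956 to 17.156 with a median of 14.9 ± 1.04 (SD, n = 21) in EKO, and from 11.476 to 17.204 with a median of 14.4 ± 1.38 (SD, n = 25) in WT. Over both sets, the EKO range lay inside the WT range. The difference over both sets was 0.51 cycles later in EKO, smaller than the SD over cells, and it ranked 41 of 47 from the earliest. Within set B it was 0.35 cycles later, also smaller than the SD of either genotype. Within set A it was 1.26 cycles later, above the EKO SD of 0.854 (n = 7) and below the WT SD of 1.42 (n = 16). The Timp1 Ct minus the Timp2 Ct of the same cell, was 0.87 ± 2.36 in WT (SD, n = 24; set A 1.06, set B 0.69) and -3.44 ± 2.94 in EKO (SD, n = 21; set A -3.42, set B -3.93). Its SD was no smaller than that of Timp1 alone. Only the change of this offset between genotypes can be read, since the assays may differ in efficiency.

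**Figure D2:**
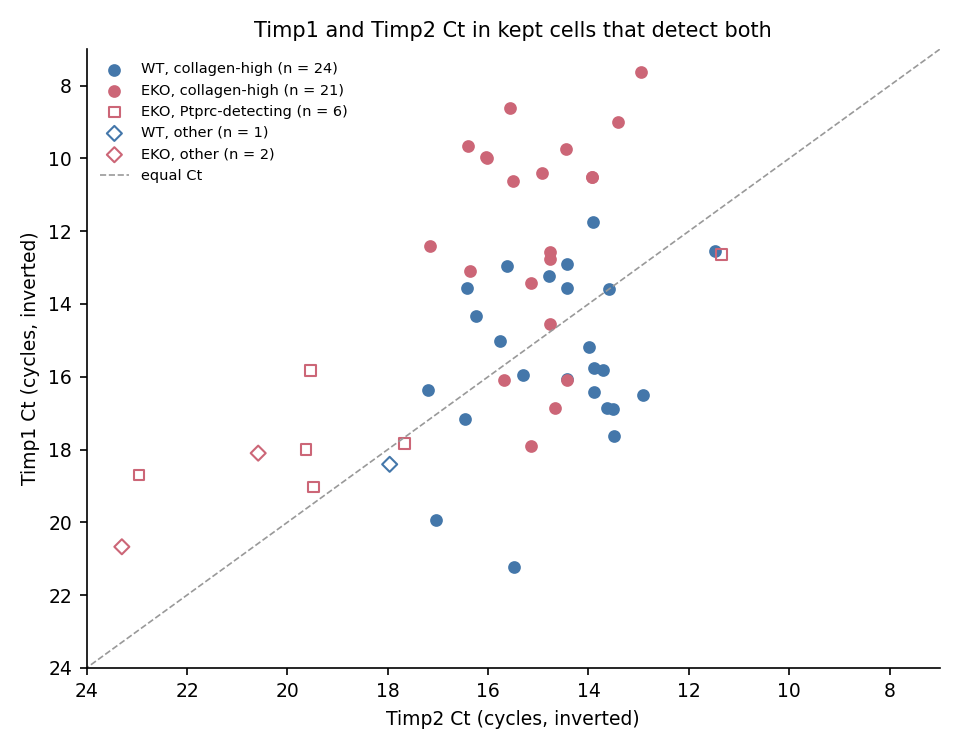
Timp1 Ct against Timp2 Ct (both axes in cycles, reversed) in the 54 kept cells that detected both, coloured by recipient genotype and marked by cell class (filled, collagen-high; open, the other classes), with a dashed line of equal Ct. EKO collagen-high cells lie toward earlier Timp1 than WT ones (median 10.6 against 15.8) over a similar span of Timp2 (medians 14.9 and 14.4).

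Across the 45 collagen-high cells with both inhibitors, Timp1 and Timp2 Ct were not ordered together (Spearman rho -0.01). Timp1 followed Actb (rho 0.62 over 44 cells, 0.81 over 21 EKO cells and 0.32 over 23 WT cells) and, less closely, Col1a1 (rho 0.40 over 45 cells). Timp2 followed Actb with a rho of 0.10 and Col1a1 with 0.33. These are descriptions: values of 1 cell share its lysate and preamplification, and cells are not independent samples.

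**Figure D3:**
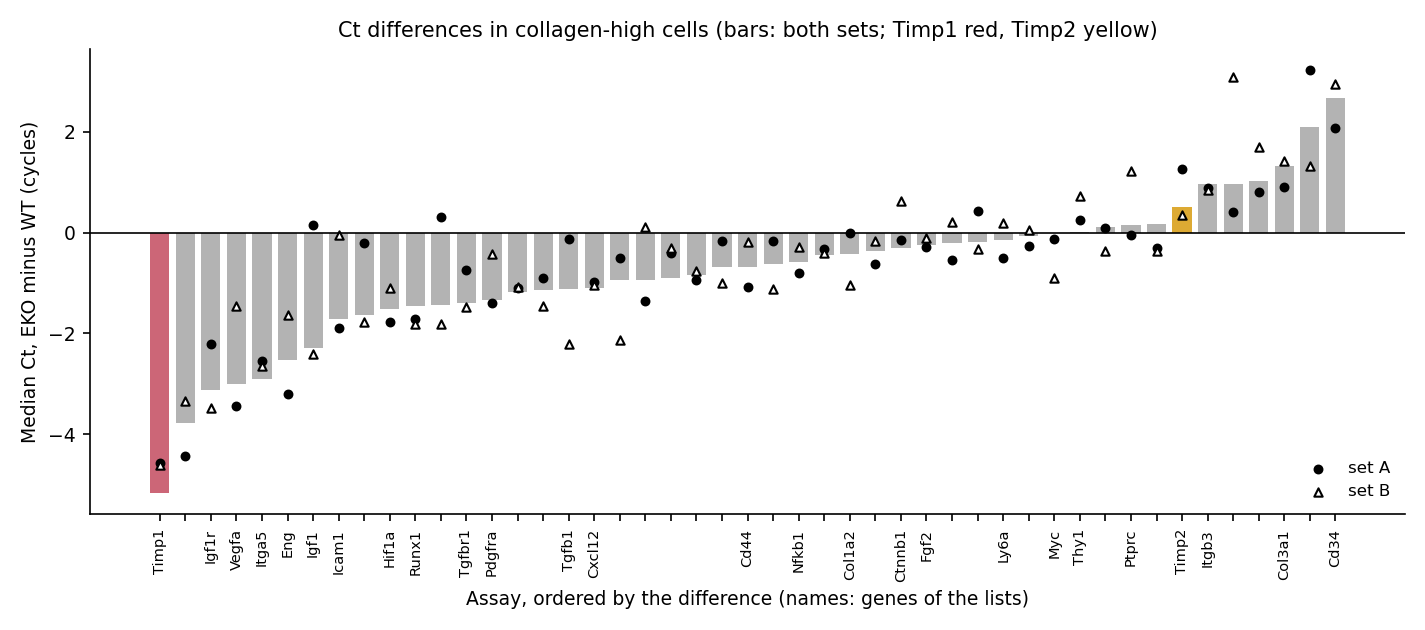
Median Ct in EKO minus WT collagen-high cells (vertical axis, cycles) for the 47 comparable assays, ordered from the earliest in EKO; bars give both sets together, circles set A and triangles set B, and names are given for genes of the lists. The Timp1 bar is the lowest at -5.17 cycles with both sets near it, and Timp2 lies above 0 at 0.51.

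In Ptprc-detecting cells, Timp1 was detected in EKO and not in WT. The count was 8 of 36 EKO cells (22.2%, 10.1 to 39.2%), with 5 of 22 in set A and 3 of 14 in set B, against 0 of 35 WT cells, whose upper limit is a share of 8.57%. The difference was 22.2 points (7.79 to 38.1). A share at least 10 points higher in EKO over both sets together, with the same sign in each set, was found for 36.2% of assays in this class. A lower one was found for 2.13%, with a median of 7.90 points over all of them. EKO cells of this class detected more assays (median 30.5 against 21). The 8 cells lay from Ct 12.6 to 20.4. They detected 34 to 70 assays, against 17 to 38 in the EKO cells of this class without Timp1 and 11 to 46 in its WT cells, so the share moved with yield, whose part in the result was not tested. Among cells of this class with at least 24 assays, 8 of 28 EKO cells and 0 of 14 WT cells detected Timp1, 28.6 points apart (3.25 to 47.1).

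Some Timp1-detecting cells of that class held many endothelial markers. The median myeloid and progenitor counts of the Timp1-detecting cells were close to those of high-yield WT cells, but some held more myeloid markers. Of the 8 Timp1-detecting cells, 4 detected at least 4 of the 6 endothelial markers measured (Pecam1, Cdh5, Kdr, Flt1, Tek and Tie1), with a median of 3 and a range of 0 to 6 per cell. The 28 EKO cells of the class without Timp1 had a median of 0 and a range of 0 to 2, with Tie1 and Tek at 0. The summed level of these markers (40 minus Ct) ran from 0 to 151.6 in the Timp1-detecting cells and from 0 to 40.97 in the others. Over all kept cells, 7 EKO cells, all in set A, passed that marker count, and Timp1 was detected in 7 of 7, at Ct 12.6 to 20.7. In WT, 2 cells passed it, and both detected Timp1, at 12.5 and 18.4. Without the cells that passed it, Timp1 was found in 4 of 32 EKO and 0 of 35 WT Ptprc-detecting cells, a smaller difference of 12.5 points (0.0697 to 28.1). The myeloid integrin subunit Itgam was detected in 4 of the 8 Timp1-detecting cells, in 1 of the 28 EKO cells without Timp1 and in 5 of the 35 WT cells. Adgre1 was detected in 2 of the 8, in 4 of the 28 and in 7 of the 35. Of 4 leukocyte and myeloid markers a median of 2 was detected against 1, and of 6 haematopoietic progenitor markers 4.5 against 2. The 11 WT cells of the class with at least 34 assays, none with Timp1, had medians of 2 and 4 for these. Their endothelial median was 1 of 6, with a range of 0 to 2. All 4 leukocyte and myeloid markers were detected in 2 of the 8 Timp1-detecting cells and in 0 of these 11 WT cells. Fibroblast genes were present in part: 6 of the 8 detected Col3a1, 4 Col1a1 at a median Ct of 19.7, and none detected Pdgfra. The part of these cell types in the result was not tested.

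Among other cells, 5 of 20 EKO cells (25%) and 1 of 33 WT cells (3.03%) detected Timp1. The 5 EKO cells detected a median of 48 assays (13 to 56), against 12 (10 to 22) in the EKO cells without Timp1. The WT cell detected 47, against a median of 15 (10 to 33) in the WT cells without it. The share thus moved with yield here too, and the part of yield was not tested. Of those 5 EKO cells, 3 also passed the endothelial marker count, and Ptprc, Itgam, Adgre1 and Ccr2 were at 0 in all 5. Timp2 in Ptprc-detecting cells was found in 17 of 36 EKO cells (47.2%) and 17 of 35 WT cells (48.6%), a difference of -1.35 points (-23.3 to 20.8). Its Ct there was 20.3 ± 3.41 in EKO (SD, n = 17; 11.349 to 28.991) and 21.96 ± 2.91 in WT (SD, n = 17; 19.188 to 30.134). That difference, -1.70 cycles (set A -1.59, set B -2.24), passed the 1-cycle size, as did 37% of the 27 comparable assays in this class (3.7% in the later direction), but was smaller than the SD over cells.

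Over all kept cells, without regard to class, Timp1 was detected in 34 of 77 EKO cells (44.2%) and 25 of 93 WT cells (26.9%), 17.3 points more (2.88 to 30.9). With no filter on cells, which had removed 19 EKO and 3 WT cells, it was 8.33 points (-4.75 to 21.03), under the 10-point size, and without the cells that passed the endothelial marker count it was 13.3 (-1.09 to 27.4). Both of these intervals include 0. Set A alone gave 7.21 points and set B alone 27.8. A share higher by at least 10 points in EKO, in the same direction in both sets, was found for 20.8% of the 96 assays, and none was lower by that rule. The share differed with yield. With 40 to 70 assays detected, Timp1 was found in 30 of 30 EKO cells and 25 of 29 WT cells (86.2%), and below 24 assays in 1 of 24 EKO cells and 0 of 51 WT cells. Among the 95 cells with at least 24 assays the difference was 2.74 points (-16.3 to 21.8). The median Timp1 Ct was 13.3 ± 4.12 (SD, n = 34) in EKO and 15.8 ± 2.32 (SD, n = 25) in WT, -2.56 cycles, with opposite signs in set A (0.64) and set B (-3.64). Set A held 7 EKO collagen-high cells against 16 in WT, and set B 14 against 9, and collagen-high cells had the earliest median Timp1 Ct of the 3 classes.

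The share with Timp2 was close in both genotypes within a wide interval: 42 of 77 EKO cells (54.5%) and 50 of 93 WT cells (53.8%) detected it, 0.78 points apart (-14.0 to 15.4), with opposite signs between sets (A -11.7, B 13.9 points). Its Ct difference also turned, from 3.12 cycles (A) to -5.36 (B). A Ct earlier by at least 1 cycle, with the same sign in both sets, was found for 35% of the 60 comparable assays. A later one was found for 6.67%, and neither inhibitor was among these assays. Mmp9 was found in 5 of 77 EKO cells (6.49%) and 3 of 93 WT cells (3.23%), 3.27 points apart (-3.63 to 11.4), a difference within counting error.

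**Figure D4:**
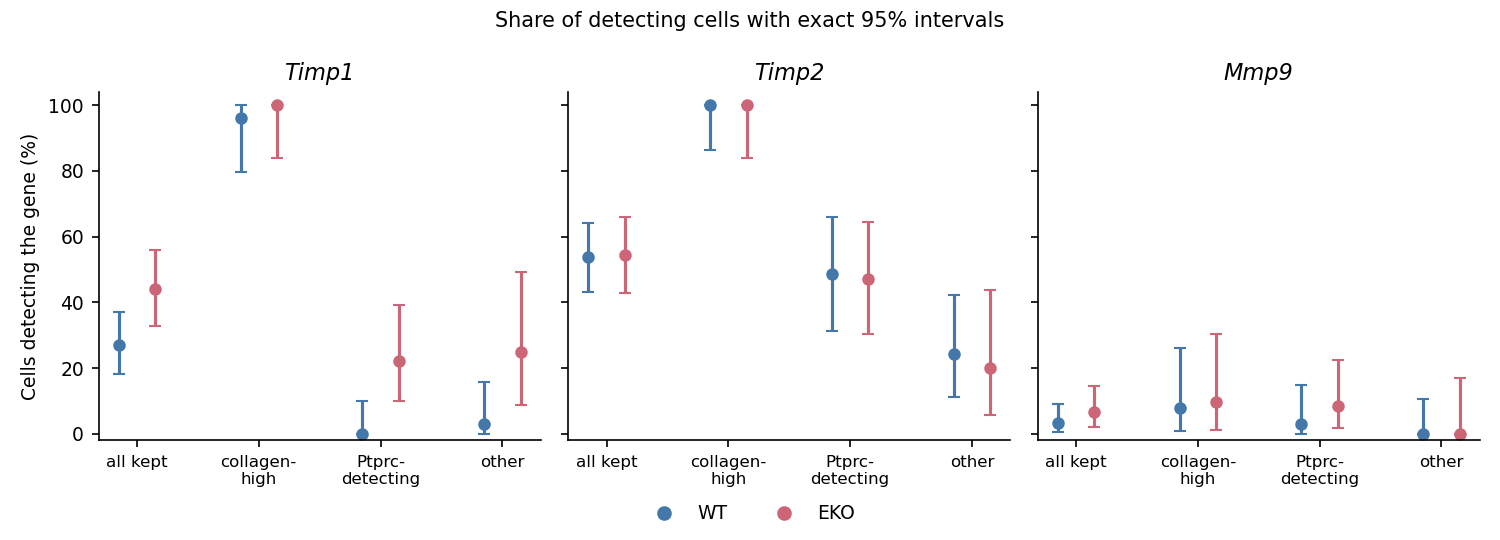
Share of cells (vertical axis, percent) that detected Timp1, Timp2 or Mmp9 among all kept cells and in each class, by recipient genotype with both sets together; error bars are exact 95% intervals that cover counting error only. Timp1 and Timp2 stand at 96% to 100% in collagen-high cells of both genotypes, and Timp1 in Ptprc-detecting cells is at 0% in WT and 22.2% in EKO.

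The 8 Mmp9-detecting cells differed in class, genotype, set and the inhibitors they detected. Of the 4 collagen-high ones, WT set A gave 1 at Ct 21.3, EKO set A 2 at 20.4 and 18.3, and WT set B 1 at 12.3. All 4 detected both inhibitors. Of the 4 Ptprc-detecting ones, a WT cell of set A had Mmp9 at 21.01 with Timp2 at 20.2 and no Timp1, and an EKO cell of set A had it at 20.8 with neither inhibitor. The earliest Mmp9 value of all, 9.002, came from an EKO cell of set B that detected 23 assays and neither inhibitor. The last, an EKO cell of set A, detected 70 assays, the most of any cell. It had Mmp9 at 14.9, Timp1 at 12.6, Timp2 at 11.3, Ptprc at 11.7, Itgam at 13.9 and Adgre1 at 15.9, beside Col3a1 at 15.98 and Col1a2 at 16.6. Doublets were not called in these data, and the part of cell number per well was not tested.

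Timp1 and Timp2 were detected together in 54 of 170 kept cells (31.8%, 24.8 to 39.3%), against 18.8% for the product of their shares. Timp1 alone was seen in 5 cells, all EKO, Timp2 alone in 38, and neither in 73. In collagen-high cells 45 of 46 had both, and the remaining cell, from WT, had Timp2 only. Joint detection followed class and yield, with 56.8% among cells with at least 24 assays.

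Over the 170 kept cells the assays whose pattern was most like Timp1 (Spearman correlation of 40 minus Ct) were Ackr3 (0.89), Itga5 (0.87) and Pdgfra (0.84). Within the 46 collagen-high cells Itga5 stayed close to Timp1 (0.85), while Pdgfra (0.54) and Ackr3 (0.47) were less alike. The assays most like Timp2 were Timp1 (0.76), Ackr3 (0.76) and Pdgfra (0.74), but in collagen-high cells the value for Timp2 with Timp1 was -0.02. For Mmp9 the highest value was 0.29, with Pdgfa, which rests on 8 detecting cells and is no finding. Class and yield are shared by all of these points.

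Of 25 proteinase and inhibitor genes listed, only these 3 were measured, so the balance of inhibitor and enzyme in the cells cannot be read from the panel. Of 5 measured matrix and myofibroblast genes, 4 could be compared between classes, and 4 of 4 had higher shares in collagen-high than in Ptprc-detecting cells, against 55.3% of all assays. They included Col1a2 (100% against 36.6%), Col3a1 (100% against 49.3%) and the matricellular gene Ccn2 (43.5% against 9.86%). Within collagen-high cells, only 2 of these genes had a level that could be compared, and neither came earlier in EKO by the 1-cycle rule. Col1a2 differed by -0.43 cycles (set A -0.01, set B -1.03), and Col3a1 came 1.32 cycles later (set A 0.90, set B 1.42). The share with the contractile actin Acta2 was 20.4 points higher. A share at least 10 points higher in EKO collagen-high cells over both sets together, with the same sign in each set, was found for 12.6% of assays. A lower one was found for 8.42%. Over both sets together, the earlier Timp1 in EKO collagen-high cells was thus not accompanied by fibrillar collagen earlier by 1 cycle or more.

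Surface proteins known to bind TIMPs or Mmp9, or to be cut or carried with them, gave 6 measured genes. Between classes 4 had a higher share in collagen-high cells and 1 a lower share, near the 55.3% and 7.45% of all assays. The higher ones included Itga5 (93.5% against 21.1%), the integrin subunit Itgb3 (78.3% against 30.99%) and the adhesion molecule Icam1 (78.3% against 43.7%). Within collagen-high cells 2 of 4 comparable genes came earlier in EKO, against 34% of all 47 assays: Itga5 by -2.91 cycles (set A -2.56, set B -2.65) and Icam1 by -1.72 (set A -1.90, set B -0.05). The median of the 4 was -1.20 cycles, against -0.67 over all 47 assays. Icam1 was also detected in 31.2 points more of the EKO cells.

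Signals and transcription factors known to act on Timp1 or Mmp9 transcription gave 11 measured genes. Between classes 8 of 11 had higher shares in collagen-high cells, against 55.3% of all assays, including Myc (93.5% against 29.6%), the growth factor Fgf2 (58.7% against 7.04%) and Runx1 (97.8% against 46.5%). Within collagen-high cells 4 of 8 came earlier in EKO and none later, with a median of -0.85 cycles, close to the -0.67 of all 47 assays, of which 34% came earlier. They were the hypoxia factor Hif1a (-1.51), Runx1 (-1.46), the TGF-beta receptor Tgfbr1 (-1.41) and Tgfb1 (-1.12). Nfkb1 (-0.58) and Myc (-0.01) did not reach 1 cycle. None of these shifts came near that of Timp1.

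Growth factors and receptors tied to release from the matrix gave 12 assays. Between classes 8 of 12 had higher shares in collagen-high cells and 1 a lower share, against 55.3% and 7.45% of all assays. The higher ones included Igf1 (67.4% against 5.63%), Vegfa (95.7% against 36.6%) and Igf1r (78.3% against 21.1%). Within collagen-high cells 4 of 6 came earlier in EKO: Igf1r (-3.12), Vegfa (-2.996), Tgfb1 (-1.12) and Cxcl12 by its assay Mm00445552_m1 (-1.10). That assay gave a Ct in 100% of both classes. The other Cxcl12 assay, Mm00457276_m1, gave one in 45.7% of collagen-high and 0 of 71 Ptprc-detecting cells. It was not among the 47 assays with a comparable level. The median of the 6 was -1.70 cycles, against -0.67 over all 47 assays, of which 34% came earlier. These cells come from donors, so Cxcl12 here is not the deleted endothelial gene of the recipient.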

How the data were processed

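Single cells were sorted and measured with FAM-labelled TaqMan assays, per the labels. The deposited table, described as non-normalized, holds 1 value per assay and cell in an unnamed unit. It was read as raw Ct because values stop at exactly 40; no source used here gives instrument, threshold, preamplification or failed-reaction rules. No column was unused. Groups and sets came from the labels. Names matched RefSeq symbols for 87 genes and synonyms for 5; 3 were kept as written. No 2 cells had identical values.

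Cells with fewer than 10 of 96 assays detected were left out. No normalization was applied, and doublets were not called. Cells are not replicates, so no test was run. Shares carry exact Clopper-Pearson intervals, differences Newcombe intervals. A share difference was counted at 10 points or more, a median Ct difference at 1 cycle or more with at least 5 detecting cells per arm and set, each with 1 sign in both sets. Differences covered all assays except those defining a class. Named genes were Timp1, Timp2, Mmp9, class and reference genes, up to 3 examples per list by class difference, and the 3 assays most alike by Spearman correlation. Other genes (those ranked beside Timp1, list genes within collagen-high cells, markers and those of the 8 Mmp9 cells) were named after their values were seen. The members and lists were chosen with earlier results of these data known. Alternatives changed the Ct limit (30, 24), the cell filter, the set, the Col1a1 limit (14, 18), the scaling and the mean. All those for the genotype comparisons within a class, and those leaving out the cell with the most assays or cells with endothelial markers, were chosen after seeing the data. Scripts were tested on simulated data. Python 3.11.15, NumPy 2.4.6, pandas 2.3.3, SciPy 1.17.1 and matplotlib 3.10.9 were used.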

Additional observations from a re-analysis of the deposited data

Results flagged for a closer look

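The 22 cells left out for fewer than 10 detected assays still gave Timp2 in 9 (40.9%, exact 95% interval 20.7 to 63.6%), a signal in cells that the comparisons leave out unless the filter is lifted. Their Timp2 Ct ran from 20.5 to 27.6 with a median of 23.5, later than every collagen-high cell. Timp1 was detected in 1 of the 22, at 21.01, and Mmp9 in 0, which allows a share of up to 13.6% by the limit of 3 cells.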

How the results depend on the processing

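Of 123 values of 15 results recomputed under the alternatives, 119 stayed within the main interval (shares) or within 1 SD over cells (Ct), 3 moved and 1, a difference of over 1 cycle, reversed. Small differences also changed sign without leaving those bounds: the Timp2 Ct difference between genotypes in 5 of 8 alternatives (1.09 cycles with no filter and 0.97 with at least 24 assays, against -0.81), the Timp2 share difference in 3 of 6, the Mmp9 share difference in 1 and the Timp1 and Timp2 offset between classes in 1. The Timp1 Ct difference between genotypes over all cells reversed in set A alone (0.64 cycles). The Timp2 Ct difference was -5.36 cycles in set B alone. With at least 24 assays the Timp1 share difference was 2.74 points and joint detection 56.8%, and without a filter on cells the Timp1 difference was 8.33 points. The cause of these changes was not tested. The Timp1 shift within collagen-high cells stayed between -5.22 and -3.45 cycles in 11 alternatives, and its share difference between classes between 78.8 and 89.7 points in 8. Some alternatives left the same detecting cells and could not change a value. For the shift these were Ct below 30, at least 24 assays, no cell filter and Col1a1 below 18, each at -5.17 cycles. Such values are counted among the 119. No paired analysis was possible because cell numbers name cells and pair nothing across genotypes. Ct levels for Mmp9 by genotype (8 alternatives) and for Timp1 between classes in set B alone were not computed, since fewer than 5 cells detected the gene in 1 arm. With 8 Mmp9 cells and 1 sample per genotype, neither rare shares nor variation between mice can be resolved.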
